A study of Mus musculus with 8 samples.

Results

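The germ cell RNA-binding proteins described here are 8 genes, Lin28a, Lin28b, Nanos2, Nanos3, Dazl, Dnd1, Ddx4 and Pum2. They were found by their symbols in the deposited table of counts, which lists 14608 genes, and all 8 of the 8 listed symbols were there. RNA-Seq had been performed on undifferentiated spermatogonia (A_undiff), the adult testis population that holds the spermatogonial stem cells and the progenitors that they give rise to. The homoeostatic group (CTRL, 4 libraries) came from untreated wild-type C57BL/6J mice aged 6 to 8 weeks. The regenerative group (BU, 4 libraries) came from mice of the same strain and age that had been given busulfan, an alkylating agent that kills spermatogonia, once at 10 mg/kg and were taken at day (D) 10. In both groups cells were sorted for E-cadherin and CD49f (α6-integrin) and against c-KIT. The BU columns of the table are numbered 2 to 5 and are called BU 2 to BU 5, and which labelled BU animal each one is was not worked out.

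LIN28A and LIN28B bind precursors of the let-7 microRNAs and block their maturation. Mature let-7 in turn pairs with the messenger RNAs of LIN28 and of many growth genes, so the axis is known as a switch between immature and differentiating states. NANOS proteins bring the CCR4-NOT deadenylase complex to their target RNAs, DND1 and Pumilio proteins such as PUM2 help to choose those targets, DAZL binds the 3′ UTRs of germ cell transcripts, and DDX4 (VASA, MVH) is the RNA helicase of germ granules.

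The sequences below are shown because LIN28 proteins bind the let-7 hairpins, and mature let-7 pairs with its targets through the seed. The RefSeq table (GRCm38.p6) gave 8 let-7 5p mature microRNAs, and all 8 had the same seed, bases 2 to 8, in capitals here. The third sequence is the let-7g hairpin at chr9:106178840-106178927 on the + strand, with the GGAG motif bound by the LIN28 zinc knuckles in capitals. GGAG was found in 9 of 11 let-7 hairpins.
let-7a-5p: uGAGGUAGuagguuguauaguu
let-7g-5p: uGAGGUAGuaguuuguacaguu
let-7g hairpin: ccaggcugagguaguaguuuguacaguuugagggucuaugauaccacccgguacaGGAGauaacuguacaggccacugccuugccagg

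The reverse complement of the let-7 seed, CTACCTC, was searched on the sense strand of the longest annotated 3′ UTR of each gene (GENCODE M21, GRCm38). Lin28a had 2 matches in 2775 bases, Lin28b had 4 in 4445 bases, and the other 6 members had 0. Among UTRs of 80% to 125% of its length the match was found in 15.3% of 1773 UTRs for Lin28a and in 25.4% of 1025 for Lin28b, and it was found in 10.7% of all 12096 UTRs. The Pumilio element, TGTANATA, was found once in Lin28a and in 2 places each in Lin28b and Pum2, where 44%, 54.1% and 44.8% of UTRs of like length held it, and in none of the other 5 members. The windows below lie on the strand of the gene, with the match in capitals. They are shown to place the let-7 and Pumilio letters in Lin28a, the member with the smallest p, beside the match nearest the stop codon of Lin28b and a Pumilio match in Pum2 itself. The let-7 and Pumilio matches shown do not overlap, and a match is a description of the letters and not a shown site of binding.
Lin28a, let-7 match, chr4:134005179-134005207: agcctgttgaaCTACCTCatttttgccga
Lin28a, let-7 match, chr4:134004541-134004569: tcgccacaaacCTACCTCactgtgttgaa
Lin28a, Pumilio match, chr4:134004352-134004381: tggcctagttgTGTAAATAtaaatgtgttg
Lin28b, let-7 match, chr10:45381012-45381040: gggcgggaagtCTACCTCatgcaagcaca
Pum2, Pumilio match, chr12:8750154-8750183: gtttatagagaTGTATATAgaattatagtt

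Library totals ran from 18152779 to 23875108 counts in CTRL and from 17181963 to 24243985 in BU, and the lowest correlation of log2 CPM between 2 libraries of a group was 0.974. Mitochondrial genes took 39.8% to 43.5% of counts in CTRL and 42% to 45.6% in BU. Levels are given as CPM, the counts of a gene per 1000000 counts of the library, scaled by TMM factors, and differences as the log2 fold change, BU minus CTRL, of the limma-voom fit over all genes with its standard error (SE). Genes were called differentially expressed (DEG) at a fold change above 1.5 with p, adjusted by Benjamini-Hochberg over the 14608 genes, below 0.05. By that rule 1949 genes (13.3%) were DEGs, of which 993 (6.80% of genes) were higher and 956 (6.54%) lower in BU. The sort genes for E-cadherin and CD49f were detected in every library, Cdh1 at 25 ± 1.06 CPM in CTRL against 24.6 ± 2.18 in BU and Itga6 at 108 ± 1.85 and 129.9 ± 4.15 (SD, n = 4 each). Kit, against whose protein the cells were sorted, was at 16.7 ± 2.87 CPM in CTRL against 88.6 ± 14.6 in BU (log2 fold change 2.42, SE 0.13).

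Of the 8 members, Lin28a and Nanos3 fell in BU and none rose. The 2 lower members of 8 stand against 6.54% of all genes lower by the same rule. An adjusted p under 0.05 at any fold was found for 4 members (Lin28a, Nanos3, Dnd1 and Ddx4), beside 32.1% of all genes. For 3 members (Lin28a, Nanos3 and Dnd1) the 4 CTRL and 4 BU libraries did not overlap, beside 30.3% of all genes. The mean level was lower in BU for 7 of the 8, and the median log2 fold change was -0.21, with -0.0059 over all genes.

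**Figure D1:**
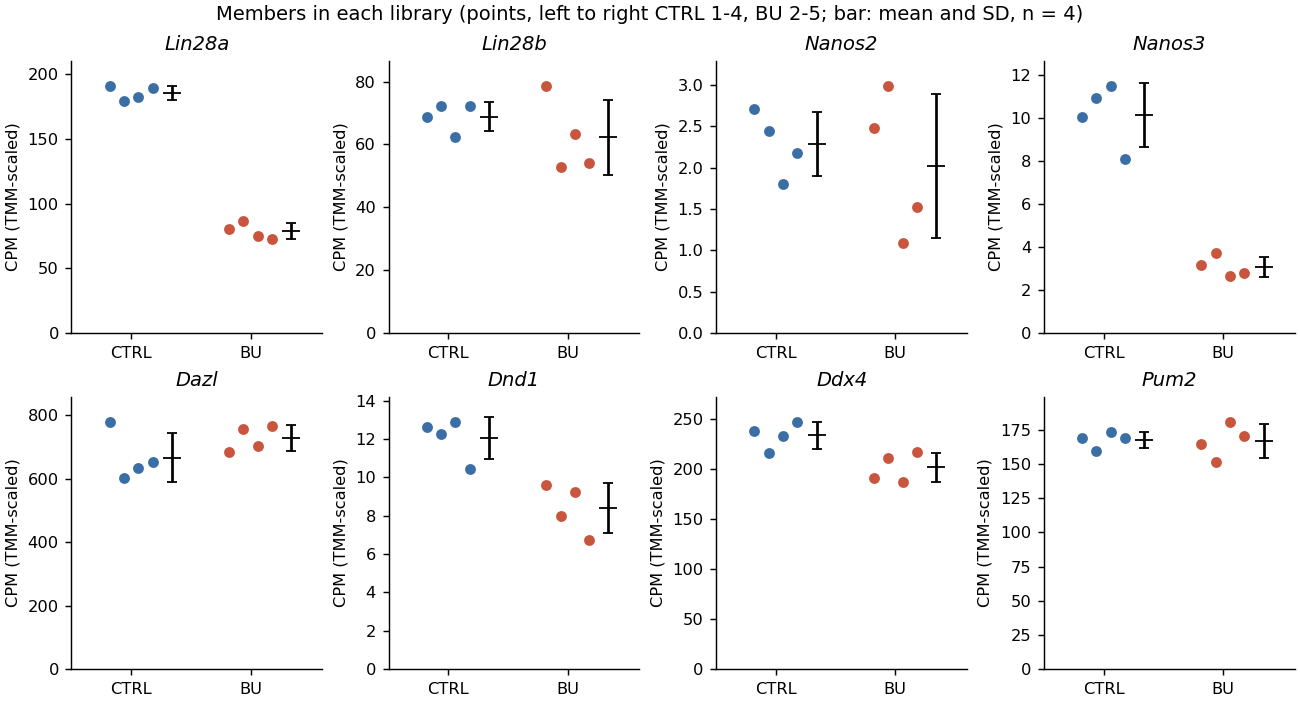
CPM (TMM-scaled, linear axes from 0) of each member in the CTRL libraries (blue, CTRL 1 to CTRL 4 from left to right) and the BU libraries (red, BU 2 to BU 5), with the mean and SD of 4 beside them. The BU libraries lie between 72.7 and 86.3 CPM for Lin28a and between 2.63 and 3.71 for Nanos3, below every CTRL library, while those of Lin28b, Nanos2, Dazl, Ddx4 and Pum2 overlap with CTRL.

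Lin28a (chr4:134003330-134018841, - strand) encodes the LIN28 paralogue that is known to mark A_undiff. It was at 191, 179.5, 183 and 189 CPM in CTRL 1 to CTRL 4 and at 80.2, 86.3, 75.2 and 72.7 CPM in BU 2 to BU 5. Every BU library was below every CTRL library, and the libraries within a group lay close together. The mean fell from 186 ± 5.48 to 78.6 ± 6.03 CPM (SD, n = 4 each), a log2 fold change of -1.24 (SE 0.06, 95% confidence interval -1.37 to -1.11) and a level 2.36-fold lower, with adjusted p = 6.8e-10. By p Lin28a was number 5 of the 14608 genes, and by size of the decrease number 169. The counts behind these levels were 3377 to 4438 in CTRL and 1196 to 2164 in BU. Lin28a shares 5.9% of its exonic bases with Gm13061 on the opposite strand, which was not among the genes analysed.

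The level in a bulk library is a mean over the sorted cells, and fewer cells of a type cannot be told apart from less RNA per cell. The progenitor-associated genes Neurog3, Rarg, Sox3, Upp1, Ddit4 and Piwil4 were lower in BU in 6 of 6 cases, and their summed level was 117 to 128 CPM in CTRL and 33.0 to 47.1 in BU. Of 10 stem-associated genes 5 were higher and none lower, with sums of 362 to 420.0 and 538 to 668 CPM. From this same comparison the paper names Neurog3, Rarg, Sox3, Upp1 and Piwil4 as lower, and Eomes, Lhx1, Nefm and Shisa6 as higher. Both counts were thus partly known beforehand and are not independent evidence. Of the 7 genes listed as A_undiff markers, Zbtb16, Foxo1 and Lin28a itself were lower and the others neither (median log2 fold change -0.58). The count of lower genes was 4 with scaling by library totals only and without CTRL 1, CTRL 4, BU 2 or BU 4. It was 1 with treat at 1.5-fold or a 2-fold threshold. Neurog3, a progenitor transcription factor, was at 7.49 ± 1.54 CPM in CTRL against 1.35 ± 0.652 in BU, and Upp1, uridine phosphorylase, at 27.4 ± 2.11 and 3.82 ± 1.08. Gfra1, the GDNF co-receptor of stem cells, was at 67.9 ± 4.95 and 99.2 ± 14.2 CPM (log2 fold change 0.54, under the fold threshold, and 0.65 and a DEG without BU 4), and Lhx1 at 23.8 ± 3.83 and 73.2 ± 9.94. The part of these shifts in the lower Lin28a and Nanos3 was not tested.

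Markers of other cells moved with the groups in some lists and not in others. Of 5 genes of differentiating spermatogonia 4 were higher and Sohlh1 lower, with sums of 79.3 to 102 CPM in CTRL and 162 to 214 in BU. The higher ones were 3 without CTRL 4 or BU 3, and 2 with treat at 1.5-fold or a 2-fold threshold. Sohlh1 was not called without BU 3 and BU 5, nor with treat or the 2-fold threshold. Of 8 immune markers 4 were tested and all 4 were higher, with sums of 8.32 to 15.4 and 22.2 to 33.5 CPM, and the macrophage genes Adgre1, C1qa, Csf1r and Lyz2 were not analysed here. The count of 4 was 2 without CTRL 1, CTRL 3 or BU 4, 3 without CTRL 4, BU 2 or BU 5 and 3 with DESeq2. Sertoli markers (4 of 6 tested, 2 higher) summed to 14.0 to 19.8 and 16.7 to 23.3 CPM, and endothelial markers (4 tested, Kdr higher) to 16.3 to 18.4 and 23.6 to 31.1 CPM. The higher Sertoli markers were 1 without CTRL 3 and 0 without BU 3 and BU 5, and the higher endothelial markers were 2 without BU 3 and 2 without BU 3 and BU 5. Star, 1 of 5 Leydig markers and the one tested, was at 5.90 to 9.04 and 6.62 to 7.74 CPM, and stromal markers (3 of 5 tested, Pdgfra higher and Col1a1 lower) summed to 54.4 to 58.8 and 33.7 to 37 CPM. Of 6 spermatocyte markers tested of 7, Spo11 was lower, with sums of 346 to 392 and 364 to 414 CPM, and none of 6 spermatid markers passed. The part of these cells in the members' levels was not tested.

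Lin28b (chr10:45376620-45486395, - strand), the second LIN28 paralogue, did not pass the test. Its levels were 68.6, 72.2, 62.5 and 72.1 CPM in CTRL 1 to CTRL 4 and 78.6, 52.9, 63.4 and 54.0 CPM in BU 2 to BU 5. BU 2 was the highest of all 8 libraries and BU 3 the lowest, so the groups overlapped. The log2 fold change was -0.17 (SE 0.10, 95% confidence interval -0.38 to 0.04, adjusted p = 0.22), with -0.28 (adjusted p = 0.013) without BU 2, -0.09 (adjusted p = 0.54) without BU 3 and 0.04 (adjusted p = 0.81) without both BU 3 and BU 5. It was under the fold threshold in each.

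Because a change in 1 paralogue and none called in the other does not show that they differ, the ratio of Lin28a to Lin28b was compared directly. The log2 ratio of CPM (each with 0.5 CPM added) was 1.43 ± 0.10 in CTRL and 0.35 ± 0.29 in BU (SD of 4 libraries each), so that the ratio, not scaled for gene length, was 2.69 in CTRL and 1.27 in BU. The difference of -1.08 was larger than the spread, with no overlap between the groups, and had p = 0.0286 in a two-sided exact permutation test, the smallest that 4 against 4 libraries can give (adjusted p = 0.0327 over the 8 pairs compared).

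Nanos3 (chr8:84173731-84185217, - strand), a NANOS protein needed for the survival of primordial germ cells, had the largest fold change of the 8. It was at 10.1, 10.95, 11.5 and 8.11 CPM in CTRL 1 to CTRL 4 and at 3.17, 3.71, 2.63 and 2.79 CPM in BU 2 to BU 5. The groups were far apart, with CTRL 4 the lowest CTRL library and BU 3 the highest BU library. The mean fell from 10.2 ± 1.49 to 3.08 ± 0.479 CPM, a log2 fold change of -1.69 (SE 0.19, 95% confidence interval -2.10 to -1.28) and a level 3.22-fold lower, with adjusted p = 4.6e-06. It ranked number 59 of all genes by size of the decrease. Its counts were 190 to 269 in CTRL and 46 to 93 in BU, far fewer than those of Lin28a.

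Nanos2 (chr7:18987400-18988962, + strand, a single exon), whose protein is known to hold stem cells in the undifferentiated state, had the lowest level of the members. It was at 2.71, 2.45, 1.80 and 2.18 CPM in CTRL 1 to CTRL 4 and at 2.48, 2.99, 1.08 and 1.52 CPM in BU 2 to BU 5. BU 3 was the highest and BU 4 the lowest of all libraries. The log2 fold change was -0.21 (SE 0.31, 95% confidence interval -0.86 to 0.43, adjusted p = 0.64). It was 0.06 (adjusted p = 0.90) without BU 4 and -0.49 (adjusted p = 0.26) without BU 3. Its counts were 21 to 75, and the interval spans values on both sides of 0 and reaches past a 1.5-fold decrease. In addition, 49.0% of its exonic bases are shared with Gm45058 on the opposite strand, and since the strand setting of the counting is not given in the sources used here, reads of the pair cannot be told apart.

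The ratio of Nanos2 to Nanos3 differed between the groups too. Its log2 value was -1.94 ± 0.32 in CTRL and -0.57 ± 0.34 in BU, a difference of 1.37 with no overlap (two-sided exact permutation p = 0.0286, adjusted p = 0.0327). Per kb of exon Nanos3 was still the higher of the 2 genes in every BU library, at 2.85 to 4.01 CPM per kb against 0.693 to 1.91 for Nanos2.

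Dnd1 (chromosome 18, 36763671 to 36766214, - strand) encodes a partner of NANOS2. Its levels were 12.6, 12.3, 12.9 and 10.4 CPM in CTRL 1 to CTRL 4 and 9.62, 7.98, 9.23 and 6.74 CPM in BU 2 to BU 5. The groups did not overlap, though CTRL 4 and BU 2 lay within 1 CPM of each other. The log2 fold change was -0.52 (SE 0.14, 95% confidence interval -0.81 to -0.24, adjusted p = 0.0070), a level 1.44-fold lower and so under the fold threshold. Without CTRL 4 it was -0.60 and passed both thresholds, and without BU 3 and BU 5 it was -0.35 with adjusted p = 0.115. Dnd1 shares 5.8% of its exonic bases with Wdr55 on the opposite strand, which was at 33.4 CPM in CTRL against 39.6 in BU (log2 fold change 0.21, SE 0.11), and it has a processed pseudogene, Dnd1-ps, so its reads may be split.

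Pum2 (chr12:8674134-8752581, + strand), the Pumilio protein that binds the element printed above, gave the smallest difference of the members. It was at 169, 159.7, 173 and 169 CPM in CTRL 1 to CTRL 4 and at 165, 152, 181 and 171 CPM in BU 2 to BU 5. The BU libraries spanned the whole CTRL range. The log2 fold change was -0.01 (SE 0.06, 95% confidence interval -0.14 to 0.11, adjusted p = 0.88), so a change of 1.5-fold lies outside the interval.

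Dazl (chr17:50279394-50293599, - strand) was the most abundant member and the only one with a higher mean in BU. It was at 779, 602, 634 and 651 CPM in CTRL 1 to CTRL 4 and at 684, 758, 702 and 766 CPM in BU 2 to BU 5. CTRL 1 was the highest library of all and the other CTRL libraries were below every BU library. The log2 fold change was 0.13 (SE 0.06, 95% confidence interval -0.0041 to 0.27, adjusted p = 0.13). Without CTRL 1 it was 0.21 (adjusted p = 0.0058) and without BU 3 and BU 5 0.06 (adjusted p = 0.56), under the fold threshold in both.

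Ddx4 (chr13:112598333-112652475, - strand) was at 238, 215, 233 and 247 CPM in CTRL 1 to CTRL 4 and at 191, 211, 187 and 217 CPM in BU 2 to BU 5. The groups overlapped only in that BU 5 was above CTRL 2. The log2 fold change was -0.21 (SE 0.06, 95% confidence interval -0.34 to -0.09), with adjusted p = 0.012 and a level 1.16-fold lower, far under the fold threshold. Without CTRL 4 it was -0.19 with adjusted p = 0.051, and without BU 3 and BU 5 -0.31 with adjusted p = 0.0014.

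**Figure D2:**
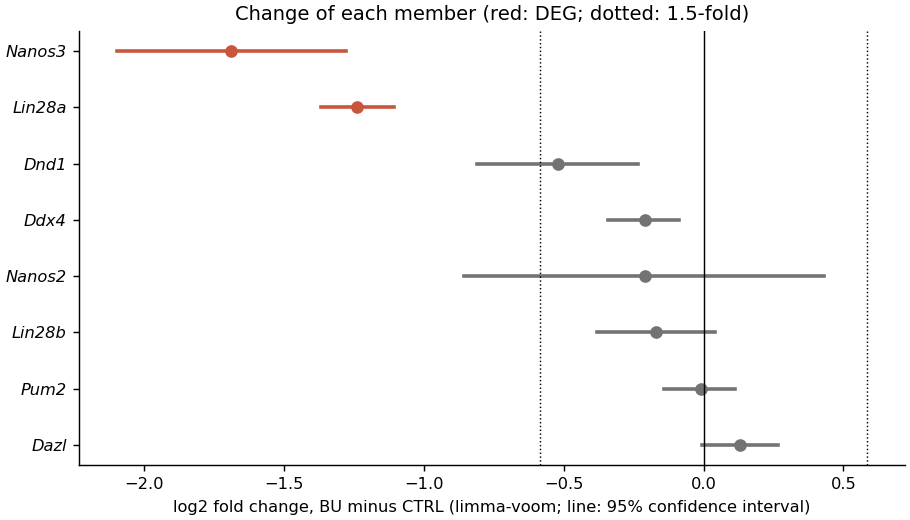
Log2 fold change, BU minus CTRL, of each member (points) with its 95% confidence interval (lines) from limma-voom on 4 libraries per group, with dotted lines at 1.5-fold and DEGs in red. The intervals of Nanos3 (-2.10 to -1.28) and Lin28a (-1.37 to -1.11) lie wholly beyond 1.5-fold. Those of Dnd1 and Nanos2 cross the lower dotted line, and that of Nanos2 (-0.86 to 0.43) is the widest.

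Divided by exon length, which allows genes to be compared, the members covered a wide range. In CTRL the mean level was 227 CPM per kb for Dazl, 77.5 for Ddx4, 46.4 for Lin28a, 23.1 for Pum2, 11 for Nanos3, 7.60 for Lin28b, 4.99 for Dnd1 and 1.46 for Nanos2. No neighbours in that order overlapped in their ranges over 4 libraries. In BU the order was Dazl (247 CPM per kb), Ddx4 (66.9), Pum2 (23.0), Lin28a (19.7), Lin28b (6.86), Dnd1 (3.48), Nanos3 (3.33) and Nanos2 (1.29). Lin28a thus moved from above Pum2 to a range that overlapped with it, and Nanos3 from above Lin28b to a range that overlapped with Dnd1, while the other neighbours stayed apart. The summed CPM of the 8 members was 1255 to 1472 in CTRL and 1214 to 1292 in BU. Of that sum Lin28a made up 13.0% to 14.3% in CTRL and 5.63% to 6.77% in BU, and Dazl 48.0% to 52.9% and 56.3% to 59.5%.

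**Figure D3:**
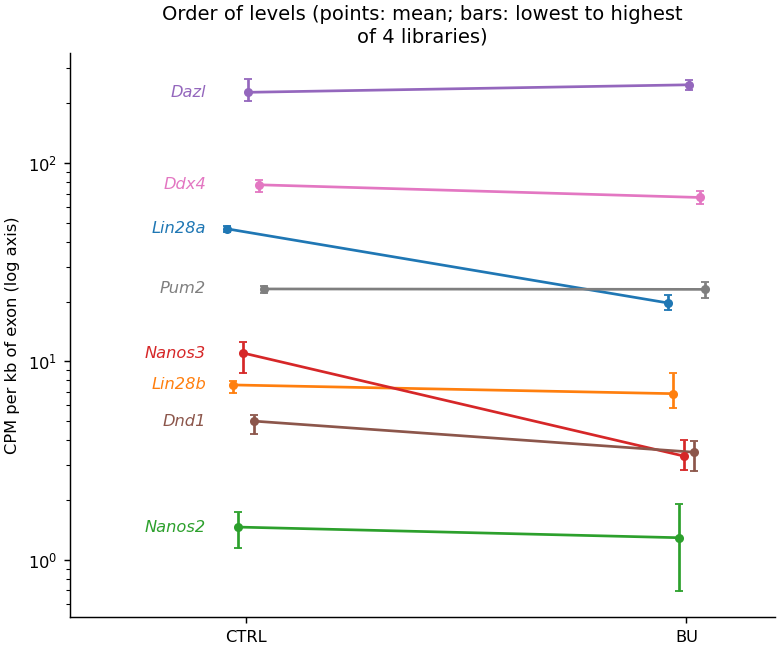
Mean level of each member in CPM per kb of exon (log axis) in CTRL and BU, with bars from the lowest to the highest of 4 libraries and lines joining the means. The lines of Lin28a (46.4 to 19.7) and Nanos3 (11 to 3.33) cross those of Pum2 and of Lin28b and Dnd1, while the lines of Dazl, Ddx4, Pum2 and Lin28b are nearly level.

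The ratio of Lin28a to each of the other members was compared in the same way, in which the scaling of a library largely cancels. These pairs share the Lin28a values and are not independent of each other. The difference of the log2 ratio was -1.37 to Dazl, -1.23 to Pum2, -1.04 to Nanos2, -1.02 to Ddx4 and -0.73 to Dnd1, in each case with no overlap between groups and p = 0.0286 in the two-sided exact permutation test (adjusted p = 0.0327). To Nanos3, the other member that fell, the log2 ratio was 4.14 ± 0.24 in CTRL and 4.47 ± 0.09 in BU, and the difference of 0.34 had an exact permutation p of 0.0857 with overlapping groups. That value depended on the pseudocount, with 0.48 when none was added and 0.04 with 2 CPM, and whether Lin28a and Nanos3 moved by unequal amounts was not resolved with 4 libraries per group.

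**Figure D4:**
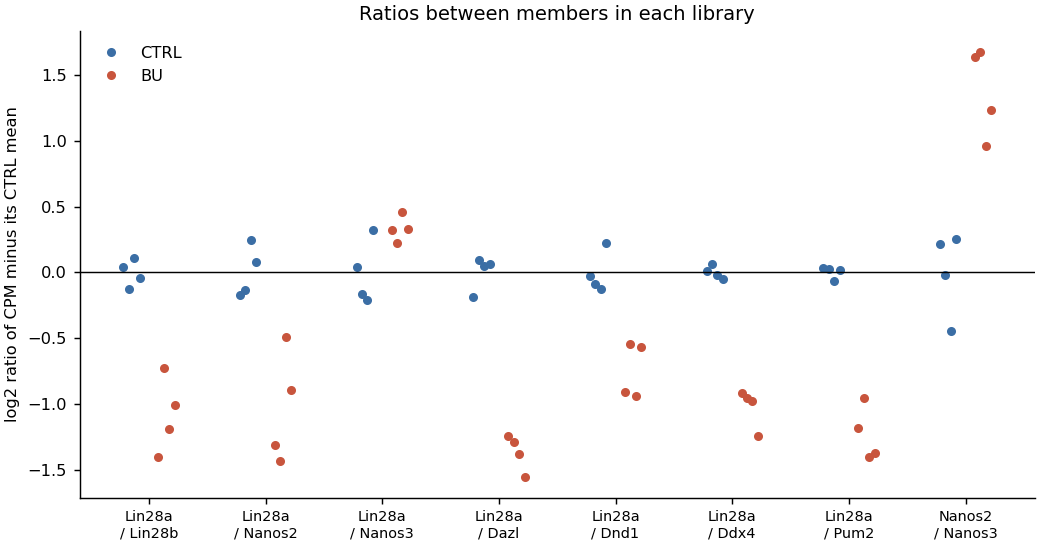
Log2 ratio of CPM between 2 members in each library (0.5 CPM added to each), set relative to its CTRL mean, for CTRL (blue) and BU (red) libraries. BU and CTRL do not overlap for 7 pairs, with differences from -1.37 for Lin28a to Dazl to 1.37 for Nanos2 to Nanos3, and overlap for Lin28a to Nanos3 (0.34).

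The promoters of the 2 members that fell are printed next, to show what letters they share. The windows run from 250 bases before to 50 after the RefSeq start (GRCm38.p6), and 7 of the 8 members were matched. The motifs searched on both strands were the SOX core ACAAT, the E-box CANNTG, the GC box GGGCGG, the CCAAT box CCAAT and the TATA box TATAAA. The SOX core, in capitals as ACAAT or its reverse complement ATTGT, was found in 2 places for Lin28a and 1 for Nanos3, and 31.0% of all 32851 promoters held it. It was also found in Lin28b and in 1 promoter of Pum2, and not in Nanos2, Dazl or Ddx4. Both promoters held 1 GC box (35.7% of all), neither held a CCAAT box (37.4%) or a TATA box (13.6%), and 2 E-boxes lay in that of Nanos3 and 0 in that of Lin28a (72.3%). None of these matches overlapped another. The GC content was 63.3% for Lin28a and 55.3% for Nanos3, with a median of 52.7% over all promoters. The Nanos3 start used by RefSeq lies within the span of the gene in the deposited table.
Lin28a promoter, chr4:134018767-134019066, - strand: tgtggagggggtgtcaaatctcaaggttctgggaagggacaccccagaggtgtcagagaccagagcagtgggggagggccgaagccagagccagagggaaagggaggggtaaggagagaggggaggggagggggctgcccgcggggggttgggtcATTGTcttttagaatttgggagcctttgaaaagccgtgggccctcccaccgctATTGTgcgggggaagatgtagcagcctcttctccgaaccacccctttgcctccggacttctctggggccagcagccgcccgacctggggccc
Nanos3 promoter, chr8:84176503-84176802, - strand: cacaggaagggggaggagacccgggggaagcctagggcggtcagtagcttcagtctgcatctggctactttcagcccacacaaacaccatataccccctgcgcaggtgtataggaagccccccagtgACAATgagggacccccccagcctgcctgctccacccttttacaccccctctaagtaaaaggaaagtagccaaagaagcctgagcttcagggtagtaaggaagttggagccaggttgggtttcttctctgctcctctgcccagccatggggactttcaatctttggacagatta

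The genes whose levels followed each member most closely over the 8 libraries were taken from the 9138 genes with a mean log2 CPM of at least 3, by Pearson's r of log2 CPM. The r values are taken over both groups and so include the difference between them, and the points share library and depth. They were also picked as the highest among 9138 genes over only 8 libraries. How high an r unrelated genes would reach by such picking was not tested. For Lin28a they were Ptch1, the Hedgehog receptor (r = 0.9999), Six4, a homeobox factor (0.9991), and Sema6d, a semaphorin (0.9989). Ptch1 was at 190.0 ± 7.90 CPM in CTRL against 54.1 ± 5.74 in BU, a log2 fold change of -1.81 (SE 0.07), Six4 changed by -2.08 (SE 0.10) and Sema6d by -0.63 (SE 0.06). The likeness is one of pattern over the libraries and not of size, since these 3 decreases range from less to more than that of Lin28a. The closest gene to Nanos3 was March8 (r = 0.9947, log2 fold change -0.52), to Ddx4 Rnf14 (0.9965, -0.20) and to Dnd1 Abcc8 (0.9818, -0.68). For the members without a clear group difference the closest were Ncor1 to Dazl (0.9676), Orc5 to Lin28b (0.9597), Eri1 to Pum2 (0.9462) and Max to Nanos2 (0.9460).

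Around LIN28 stand the genes of let-7 processing and the partners of LIN28. Of 17 such genes tested, 1 was higher, none lower and 16 neither, with a median log2 fold change of 0.04. Beside this list and those below, 6.80% of all genes were higher and 6.54% lower by the same rule. The one that rose was Ago2, which encodes the slicing Argonaute protein, from 8.73 ± 1.36 to 14.2 ± 3.40 CPM (log2 fold change 0.65, SE 0.17, adjusted p = 0.0079), and this call was lost without CTRL 1 (0.55), BU 4 (0.56) or BU 5 (0.55). The genes with the smallest adjusted p were under the fold threshold. Dicer1, which cuts the let-7 hairpin, was at 333 ± 8.06 CPM in CTRL against 251 ± 20.4 in BU (log2 fold change -0.41, SE 0.06), and Drosha, which cuts the primary transcript, at 226 ± 5.84 and 288 ± 22.1 (0.34, SE 0.06). Trim71, itself a classic let-7 target, was at 547 ± 27.8 and 438 ± 27.2 CPM (-0.32, SE 0.05). For all 3, which were picked by their small adjusted p, the groups did not overlap, as for 30.3% of all genes.

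Among known let-7 targets 20 of 21 listed genes were tested, and 3 were higher, 3 lower and 14 neither (median -0.03). Cyclin D1 (Ccnd1) rose from 31.9 ± 0.994 to 67.1 ± 4.94 CPM (log2 fold change 1.07, SE 0.08, adjusted p = 1.7e-08), Ccnd2, cyclin D2, from 161 ± 14.4 to 287 ± 17.5 (0.84, SE 0.06) and Cdc25a, a phosphatase that activates cyclin-dependent kinases, from 25.2 ± 1.201 to 44.5 ± 2.69 (0.83, SE 0.08). These 3 drive entry into and passage through the cell cycle. The genes that fell were Cdk6 (-0.91, SE 0.11), the partner kinase of the D cyclins, Igf2bp2 (-0.75, SE 0.11), an RNA-binding protein, and Mycn (-0.75, SE 0.12), a growth transcription factor, and these were named after their values were seen. By the DEG rule the list therefore had no common direction. With treat at 1.5-fold 2 were higher and none lower, and with a 2-fold threshold 1 was higher and none lower. Ccnd1 shares 23.4% of its exonic bases with a gene on the opposite strand. The let-7 RNAs themselves were not analysed here.

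The effector machinery of NANOS, the CCR4-NOT complex and other deadenylation factors, was tested for 19 of 20 genes, and 2 were higher, none lower and 17 neither (median 0.00). The 2 that rose encode BTG/TOB antiproliferative adaptors of the deadenylases, Tob1 (20.1 ± 1.95 to 34.2 ± 5.60 CPM, log2 fold change 0.74, SE 0.11, adjusted p = 8.1e-05) and Btg2 (9.54 ± 0.647 to 15.04 ± 1.102, 0.65, SE 0.11). Pan3, of the PAN2-PAN3 deadenylase, was at 154 ± 7.63 CPM in CTRL against 121 ± 9.37 in BU (-0.35, SE 0.06). None of 14 P-body decapping and repression genes passed (median -0.05). The nearest was Xrn1, the 5′ to 3′ exonuclease, at 204 ± 3.84 and 139.8 ± 8.59 CPM (-0.55, SE 0.05, adjusted p = 9.4e-07), which passed without BU 2 (-0.59), and Lsm14b and Edc4 were at -0.30 and -0.25. None of 7 relatives of the members passed either (median -0.07), with Pum3 at 0.27 (SE 0.08) and Boll, a DAZ family member, at -0.22 (SE 0.09).

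Germ granule genes, which act in the compartment that DDX4 marks, lay below 0 in 17 of 17 cases. By the DEG rule 4 were lower, none higher and 13 neither, beside 6.54% of all genes lower. The median log2 fold change was -0.39, with -0.0059 over all genes, and the range was from -1.44 to -0.20. The list was chosen with earlier results of these data known. Piwil4 (MIWI2), a PIWI protein that carries piRNAs into the nucleus, fell from 41.9 ± 2.36 to 15.4 ± 0.973 CPM (log2 fold change -1.44, SE 0.09, adjusted p = 5.3e-09) and was counted among the progenitor-associated genes too. Ddx25, a testis helicase, fell from 47.4 ± 2.93 to 23.7 ± 2.81 CPM (-0.99, SE 0.09). Tdrd5, a Tudor domain protein of the granules, fell from 107.8 ± 8.10 to 62.7 ± 3.19 (-0.78, SE 0.07). Henmt1, which methylates piRNA 3′ ends, fell from 26.3 ± 0.871 to 17.2 ± 1.69 CPM (-0.62, SE 0.09), a call lost without BU 5 (-0.57) and without BU 3 and BU 5 (-0.50). Ddx4 itself, at -0.21, lay near the upper end of that range. With a 2-fold threshold 1 of the 17, Piwil4, was called.

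Other germ cell RNA-binding proteins, 31 genes, were 2 higher, 3 lower and 26 neither (median 0.02). Msi2, a Musashi translational regulator, fell from 216 ± 18.01 to 123 ± 4.14 CPM (log2 fold change -0.81, SE 0.06, adjusted p = 5.4e-08), Bicc1 from 51.2 ± 3.43 to 29.6 ± 4.16 (-0.79, SE 0.09) and Adad2 from 16.1 ± 1.66 to 7.47 ± 1.38 (-1.09, SE 0.14). Ybx3, a Y-box protein, rose from 55.6 ± 4.06 to 88.2 ± 10.9 CPM (0.66, SE 0.08), a call lost without BU 3 and BU 5 (0.53). Cpeb2, a cytoplasmic polyadenylation factor, rose from 10.6 ± 2.15 to 16.6 ± 3.02 CPM (0.65, SE 0.15), lost without CTRL 2 (0.55), BU 5 (0.58) or both BU 3 and BU 5 (0.44). Rbm44 was at 85.9 ± 4.62 and 121 ± 3.34 CPM (0.50, SE 0.06), under the fold threshold.

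None of 12 DEAD-box paralogues of Ddx4 passed (median 0.07). The 3 with the smallest adjusted p were the translation factors Eif4a1 (0.35, SE 0.06) and Eif4a2 (-0.33, SE 0.08) and the helicase Ddx5 (-0.23, SE 0.05). Of 3 transcripts known to be bound by DAZL none passed, namely Ddx4, Sycp3 (65.6 ± 5.86 and 69.8 ± 7.18 CPM, 0.08, SE 0.08) and Tex19.1 (43.2 ± 7.73 and 39.8 ± 5.95 CPM, -0.11, SE 0.12). Sycp3 shares 52.2% of its exonic bases with Chpt1 on the opposite strand, so its reads are uncertain.

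**Figure D5:**
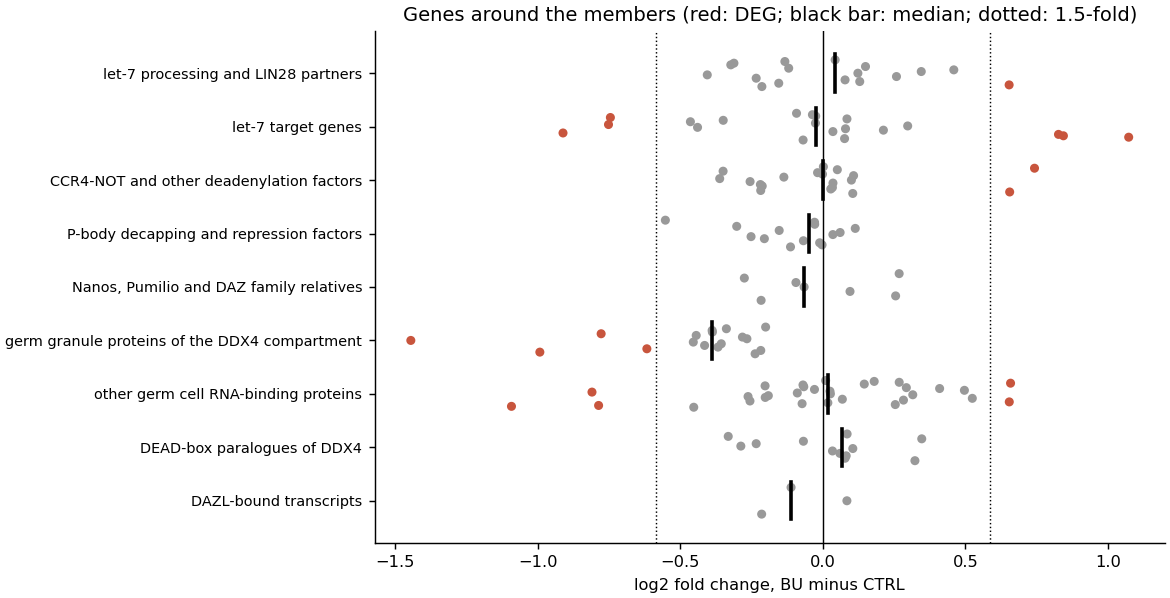
Log2 fold change, BU minus CTRL, of the tested genes in each list around the members (points, red for DEGs), with the median of the list as a black bar and dotted lines at 1.5-fold. Germ granule genes all lie below 0 (median -0.39, with -0.0059 over all genes), and the let-7 targets spread to both sides with 3 DEGs on each.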

How the data were processed

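A_undiff of 4 untreated and 4 busulfan-treated mice were measured by RNA-Seq. RNA was amplified as cDNA by single primer isothermal amplification (SPIA) before 100 bp paired-end sequencing, and amplification from few cells can alter the yield of a transcript. The authors used the RNAsik pipeline. The tools featureCounts, limma and edgeR and the build GRCm38 stand in the submitters' processing notes, while the strand setting and the aligner are not given in the sources used here. The deposited values used are raw counts per gene, with no normalisation. Beside them lie 8 columns of the authors' CPM and 5 columns of their comparison (log2 fold changes, p-values and the like), which were not used. The deposited gene length in bp (unit other, the authors' annotation) was used for levels per kb and the deposited coordinates for gene positions. The table holds genes with 1 CPM or more in 4 or more libraries, and rarer transcripts were not analysed here.

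Counts were analysed with limma 3.58.1 (voom) and edgeR 4.0.16 in R 4.3.3, with TMM factors, filterByExpr (which removed 0 of 14608 genes) and the group as the only term. Adjusted p-values of genes are from this limma fit unless a permutation is named. On simulated counts for 14608 genes with the means of these libraries, 95% of 100 genes changed 2-fold and 100% of 100 changed 4-fold were recovered, with 5 false calls. The changed genes were drawn only from genes above a minimum mean count, and recovery below that minimum was not measured. Ratios between members were compared on log2((CPM + 0.5)/(CPM + 0.5)) by an exact permutation test over 70 assignments, adjusted over 8 pairs. The alternatives comprised DESeq2 1.42.0, the quasi-likelihood test of edgeR, treat in limma at 1.5-fold, a 2-fold threshold, other scalings, filters and weights, and each library left out. After the data were seen, fits without mitochondrial genes and without both BU 3 and BU 5, in which C3 and Cp together had the most CPM among BU libraries (124 and 120.2, with 60.6 in BU 2 and 86.1 in BU 4), were added. Samples were separate libraries, and the paper gives 4 mice per group. The p-values measure the spread between libraries, and no label says which mouse a library came from.

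The members and gene lists were chosen with earlier results of these data known. Named are all members, in each list up to 3 genes with the smallest adjusted p and all DEGs where there were 5 or fewer, the sort genes and state genes, and for Lin28a the 3 genes and for each other member the 1 gene of highest r. One gene that this rule names is not reported here. Symbols in the table were used as given. Sequences are from RefSeq (promoters and microRNAs, GRCm38.p6) and GENCODE M21 (3′ UTRs, GRCm38), and Python 3.11.15 was used for them. Confidence intervals are at 95%.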

Additional observations from a re-analysis of the deposited data

Results flagged for a closer look

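Of 112 groups of 4 libraries checked, for 56 genes in CTRL and BU, 3 had a library far from the other 3, judged by its gap to the nearest as a share of the group's range (above Dixon's critical value), where chance gives about 5%. For Kit, the gap was 0.890 in CTRL, where CTRL 2 was the highest at 20.9 CPM, and 0.839 in BU, where BU 4 was the highest at 110.2 CPM. For Ccnd2 it was 0.862 in CTRL, where CTRL 2 was the highest at 182 CPM. None of the 8 members met this rule in either group.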

How the results depend on the processing

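Lin28a ranged from -1.29 to -1.20 and Nanos3 from -1.81 to -1.61 over the 20 alternatives, and both were called lower in each, including edgeR, DESeq2, treat and the 2-fold threshold. The count of DEGs was 375 with treat and 664 with the 2-fold threshold against 1949, and 1763 to 2021 with 1 library left out. Of the 23 DEGs outside the members that the naming rule above picked, treat ended the call of 11, the 2-fold threshold of 14 and the other settings of 5. Genes named only from the marker lists, and Cdk6, Igf2bp2 and Mycn, were not in this tally.

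With 1 library left out the log2 fold change ranged from -0.60 to -0.44 for Dnd1 (a DEG without CTRL 4), from -0.49 to 0.06 for Nanos2 (above 0 without BU 4), from -0.06 to 0.04 for Pum2 (above 0 without CTRL 3 or BU 3), from -0.28 to -0.09 for Lin28b, from 0.09 to 0.21 for Dazl and from -0.25 to -0.18 for Ddx4. Without BU 3 and BU 5 it was 0.04 for Lin28b and 0.04 for Pum2, and with upper-quartile scaling 0.0011 for Pum2. The cause was not tested. The ratio differences kept their sign in all 12 alternatives each. Another scaling moved the median of all genes from -0.0059 to between -0.027 and 0.0099.

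No paired analysis was possible because the BU columns carry the numbers 2 to 5, which do not tie them to the labelled BU replicates. Counts were under 100 for Nanos2 in every library and for Nanos3 in BU.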
